A study of Mus musculus with 16 samples.

Results

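FAT10 is a ubiquitin-like modifier, encoded in the mouse by Ubd, and 3 further genes supply the machinery that is known for using it. These are Uba6 (the E1 activating enzyme), Ube2z (the E2 enzyme, also called USE1) and Nub1 (an adaptor that links FAT10 to the proteasome). The 4 genes were taken by name from a table of 23420 genes, and all 4 passed the filter on low counts in every fit. Ubd was selected on a measured value, its higher level in cortical cells that lack the proteasome subunit gene Psmb11, so its values in any comparison with cortical cells are given as a description with no test. The other 3 genes were chosen for their function and were tested throughout.

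FAT10 carries tandem ubiquitin-like domains and marks proteins for destruction by the proteasome. UBA6 activates it, UBE2Z transfers it, and NUB1 speeds the degradation of FAT10 and of the proteins joined to it. UBA6 also activates ubiquitin itself. FAT10 is known to be induced by tumour necrosis factor and interferon-gamma, and in the thymus it has been described mainly in medullary epithelial cells; mature dendritic cells and B cells are known to make it too. The gene lies in the major histocompatibility complex region.

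The data are 16 RNA-seq libraries from sorted epithelial cells of the mouse thymus, whose surface peptides steer the choice of maturing T cells. Mice were psmb11 +/+ (WT) or psmb11 -/- (KO), and each genotype gave cortical cells (cTEC) and a pair of medullary populations, labelled MHC II low (mTEClo) and MHC II high (mTEChi). Psmb11 encodes beta5t, a catalytic subunit of the thymoproteasome, which is known mainly from cortical cells. Each genotype has 2 cTEC, 3 mTEClo and 3 mTEChi libraries. All groups carry the same strain label, C57BL/6-derived BAC, and the labels give no treatment. Per the labels' protocol the cells were negative for CD45, an antigen of blood cells, and positive for the epithelial antigen EpCAM; cTEC were then taken by Ly51 and mTEC by binding of the lectin UEA1. The age label is 6 to 8 weeks for every library, with 11 thymi in the series description, whereas the extraction protocol gives mice of 7 days and a number of 14. How many animals went into a library, how the KO allele was made and whether populations share animals are not given in the sources used here, so p-values measure the spread between these libraries only.

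The promoter of Ubd is shown because the gene is known to answer to inflammatory signals and because, of the 4 genes, it was the one whose level varied most between groups. The 250 bases before its RefSeq start (GRCm38.p6, chr17:37193642-37193891, plus strand, 5′ to 3′) are, with the capitals marking the single match to the consensus of the transcription factor NF-kB:
Ubd promoter: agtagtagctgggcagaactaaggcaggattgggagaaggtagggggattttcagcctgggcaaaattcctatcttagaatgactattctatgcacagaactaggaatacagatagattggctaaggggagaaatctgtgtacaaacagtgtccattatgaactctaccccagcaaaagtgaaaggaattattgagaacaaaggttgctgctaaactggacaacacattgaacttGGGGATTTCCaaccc
The match, GGGGATTTCC, runs from 15 to 6 bases before the start. On either strand, this consensus occurs in 7.25% of 32851 mouse promoter windows of 250 bases. No match was found in the same window to the interferon-stimulated response element (ISRE), present in 2.98% of windows, or to the palindromic gamma-activated site (GAS) TTCNNNGAA, present in 7.02%. The Nub1 window held none of the 3 motifs, and the Ube2z window held 1 GAS match, TTCTTTGAA, from 240 to 232 bases before the start. The sequences are RefSeq's; 3 of the 4 genes matched the promoter table, and Uba6 did not. A match of letters is a description and says nothing about binding in these cells.

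On mm10, Ubd spans 37193892 to 37196101 of chromosome 17 on the plus strand and has 2 exons, of 81 and 850 bases. Uba6 spans 86110730 to 86172743 of chromosome 5 on the minus strand, with up to 33 exons. Ube2z spans 96047431 to 96065364 of chromosome 11 on the minus strand, with 7 exons. Nub1 spans 24685815 to 24710555 of chromosome 5 on the plus strand, with up to 15 exons, and overlaps the antisense gene Gm26648. The libraries do not mark the strand, so Nub1 reads cannot be told apart from reads of that antisense gene.

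Library totals ran from 64753610 to 146707262 gene counts, so 3 counts corresponded to at most 0.0463 CPM (counts scaled to a common library size). Levels below are CPM after TMM scaling, a correction for differences in RNA composition, over the 16 libraries. Psmb11 matched the labels: its CPM were 170 and 139 in WT cTEC and 2.11 and 0 in KO cTEC, 8.06 to 13.0 in WT and 1.11 to 1.63 in KO mTEClo, and 8.57 to 11.8 in WT and 0.715 to 1.12 in KO mTEChi. The 2 KO cTEC libraries stood apart from the rest. Replicate 1 had the highest share of reads outside genes (30.4%, against 13.7% to 23.7% elsewhere), and replicate 2 had the most genes at 0 counts (8541, against 2293 to 6938 elsewhere). They were also the least alike pair of replicates, with a Pearson r across genes of 0.957 on log2(CPM + 0.5), against 0.991 to 0.998 for the other pairs.

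Ubd, the modifier, was detected in all 16 libraries. In WT cTEC its level was 107 and 94.0 CPM, and in KO cTEC 361 and 215 CPM. In mTEClo it was 181, 192 and 181 CPM in WT and 197, 193 and 197 CPM in KO. Both KO cTEC libraries therefore lay above both WT cTEC libraries and above all 6 mTEClo libraries. In mTEChi it was 2012, 1994 and 1840 CPM in WT and 2012, 2139 and 2065 CPM in KO, far above every other library. Group means in descending order were 2072 ± 63.9 CPM (SD, n = 3) in KO mTEChi, 1949 ± 94.5 (n = 3) in WT mTEChi, 288 ± 103 (n = 2) in KO cTEC, 196 ± 2.11 (n = 3) in KO mTEClo, 185 ± 6.18 (n = 3) in WT mTEClo and 100.5 ± 9.18 (n = 2) in WT cTEC. Of the neighbours in this order, only the mTEChi genotypes overlapped. These are bulk measurements, in which fewer cells with Ubd and less Ubd RNA per cell cannot be told apart.

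**Figure D1:**
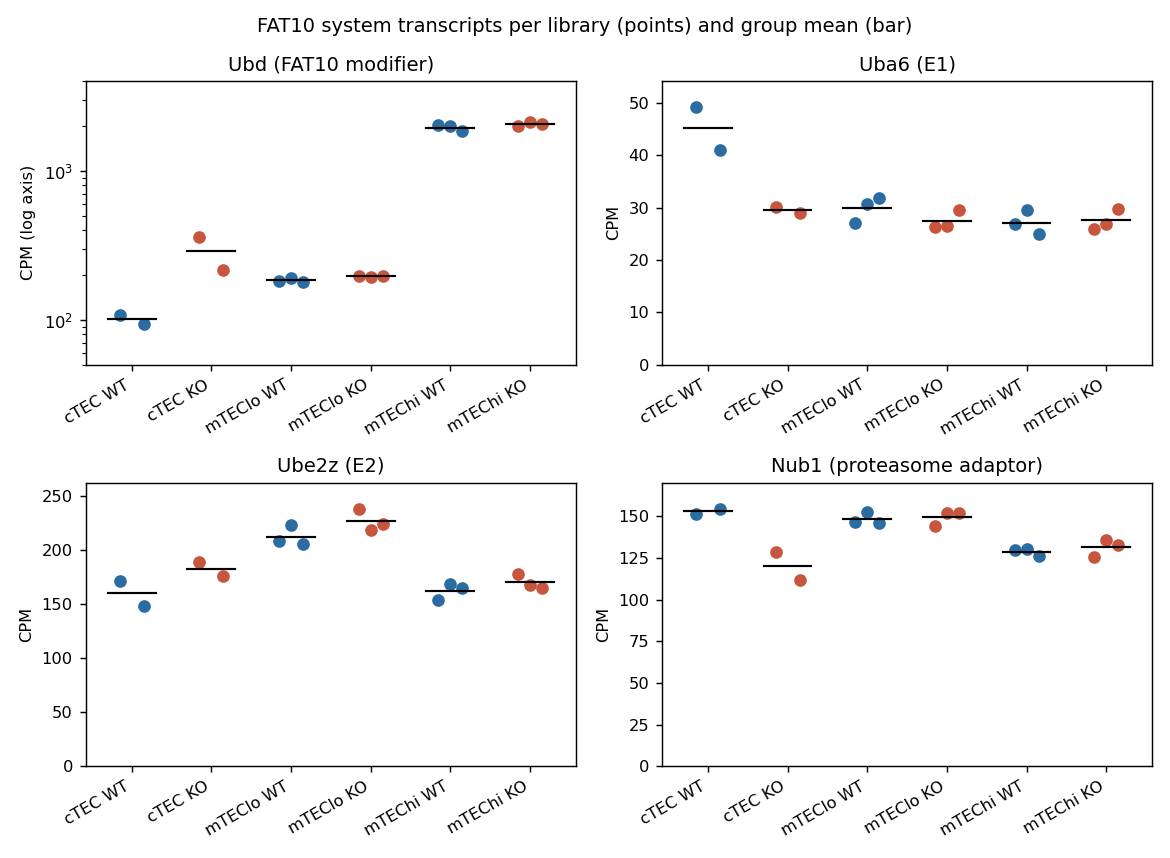
CPM of Ubd (log axis), Uba6, Ube2z and Nub1 (linear axes from 0) in the 16 libraries by population and genotype; points are libraries, WT in blue and KO in red, and bars are group means. Ubd lies at 1840 CPM or more in all mTEChi libraries and at 361 CPM or less in all others, whereas Uba6, Ube2z and Nub1 stay within narrow ranges.

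The choice of the gene did not use the medullary populations, and Ubd differed widely between them. In WT it was 10.5-fold higher in mTEChi than in mTEClo, with log2 3.39 (SE 0.07, adjusted p = 7.43e-15 by edgeR's quasi-likelihood test with Benjamini-Hochberg adjustment, higher in 3 of 3 libraries). In KO it was 10.6-fold higher, with log2 3.41 (SE 0.07, adjusted p = 7.40e-15 by the same test). Most genes differed between these populations: 79.6% of 19816 genes passed the threshold of 0.05 in WT and 80.4% in KO. Of the 3217 genes with a mean of at least 100 CPM in 1 of the 2 WT groups, 66 had a larger log2 fold change than Ubd. The direction and the call of Ubd held under every scaling, tool and left-out library tried, at log2 fold changes of 3.37 to 3.64 in WT.

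Markers of blood cells that are known to make FAT10 moved with this difference. The summed level of 11 dendritic cell and macrophage markers was 68.7 to 69.7 CPM in WT mTEClo and 608 to 628 CPM in WT mTEChi, and all 11 were higher in mTEChi by the same test. The summed level of 6 B cell markers was 12.9 to 16.5 CPM in WT mTEClo and 37.9 to 39.9 CPM in WT mTEChi. Of the 6, 5 were higher, beside the same 79.6%. None of these markers was at 0 in all libraries of either group, and the marker Adgre1 was not matched in the table. Their part in the Ubd difference was not tested. Of the 13 mTEC markers tested, 11 were higher in WT mTEChi and 2 lower, again beside 79.6% of all genes called. Their median log2 fold change was 1.54 against 0.08 over all genes.

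Within the medulla, loss of Psmb11 left no called difference in Ubd. In mTEClo the log2 fold change, KO over WT, was 0.08 (SE 0.06, edgeR adjusted p = 0.577), although the KO libraries lay above the WT libraries without overlap, as 17.4% of all genes did in 1 direction or the other. In mTEChi it was 0.09 (SE 0.06, edgeR adjusted p = 1.00), and the genotypes overlapped; 8.96% of genes did not overlap there. The fits called 12 of 19816 genes (0.0606%) in mTEClo and 1 gene (0.00505%) in mTEChi. The difference between the 2 effects was itself tested. It was 0.01 for Ubd (SE 0.09, edgeR adjusted p = 1.00), and 2 genes (0.0101%) passed over the whole table. For Uba6, Ube2z and Nub1 it was 0.16, -0.02 and 0.03, and none passed the threshold.

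In cTEC, where Ubd was chosen, the log2 fold change of KO over WT was 1.53 (SE 0.22), or 2.88-fold, given as a description. Both KO libraries were above both WT libraries, and KO replicate 1 was the higher of the pair. Leaving out KO replicate 1 gave 1.17, and leaving out KO replicate 2 gave 1.82. Libraries of the 2 genotypes did not overlap for 45.2% of the 16423 genes tested in cTEC. In the edgeR fit of the 4 cTEC libraries, 0 genes (0%) passed the threshold, 2104 had an unadjusted p under 0.05, and DESeq2 and voom with a weight per library called 821 and 511. Even Psmb11, the deleted gene, was not called by the edgeR fit, at a log2 fold change of -7.19 (edgeR adjusted p = 0.0855). A missing call in that fit is thus no evidence that a gene was unchanged. Among the 2861 genes with a mean of at least 100 CPM in 1 of the genotypes, 10 had a larger log2 fold change than Ubd. Because Ubd was chosen on this comparison, its high place follows from the choice and is no support. Whether the change of Ubd in cTEC differed from that in mTEC was not tested.

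Marker genes of the medulla mostly had higher values in the KO cTEC libraries, and those of the cortex lower ones. Of 13 mTEC markers tested, all 13 had a log2 fold change above 0, with a median of 1.03 against 0.01 over all genes, and 8 did not overlap between genotypes, beside 45.2% of all genes. All 10 cTEC markers were below 0, with a median of -0.73, and 8 did not overlap, beside the same 45.2%. Psmb11, the deleted gene, is 1 of the 10 and does not overlap, so its fall was set by the genotype and is no result. None of these markers passed the adjusted threshold of edgeR. Summed over 14 genes, mTEC markers were at 3757 and 4209 CPM in WT cTEC and between 4450 and 4630 CPM in KO cTEC. Ccl21a was listed at 0 in every library. Krt5 made up most of the mTEC sum, with a mean of 3095 CPM in WT cTEC and 3046 and 3127 CPM in KO cTEC. The 10 cTEC markers, Psmb11 among them, summed to 6582 to 7806 CPM in WT cTEC and 4310 to 5233 CPM in KO cTEC. Blood cell markers were likewise above: the 6 B cell markers summed to 2.33 to 4.54 CPM in WT and 12.5 to 12.9 CPM in KO, and the 11 dendritic cell and macrophage markers to 64.9 to 84.1 and 128 to 147 CPM, with Siglech at 0 in both WT libraries. Thymocyte markers summed to 88.8 to 119 CPM in WT and 108 to 169 CPM in KO, overlapping.

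The size of these differences was set beside that of Ubd on a common scale, the level in WT mTEChi. As a share of the mean WT mTEChi level, Ubd stood at 5.49% and 4.82% in WT cTEC and at 18.5% and 11.0% in KO cTEC. The excess over the WT cTEC mean was thus 13.4% of the mTEChi level in KO replicate 1 and 5.86% in KO replicate 2. For the 11 mTEC markers at least 2-fold higher in WT mTEChi than in WT cTEC, the same excess ran from 6.25% to 30.8% in KO replicate 1, with a median of 13.4%, and from -5.16% to 21.8% in KO replicate 2, with a median of 2.86%. Ubd lay inside that range in both libraries, above 5 of the 11 markers in replicate 1 and above 7 of 11 in replicate 2. Aire, the regulator of self-antigen expression that marks mature medullary cells, had an excess of 6.25% and 2.11%, and Spib, a transcription factor of the same cells, 27.7% and 12.1%. The part of medullary or blood cells in the Ubd difference was not tested.

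**Figure D2:**
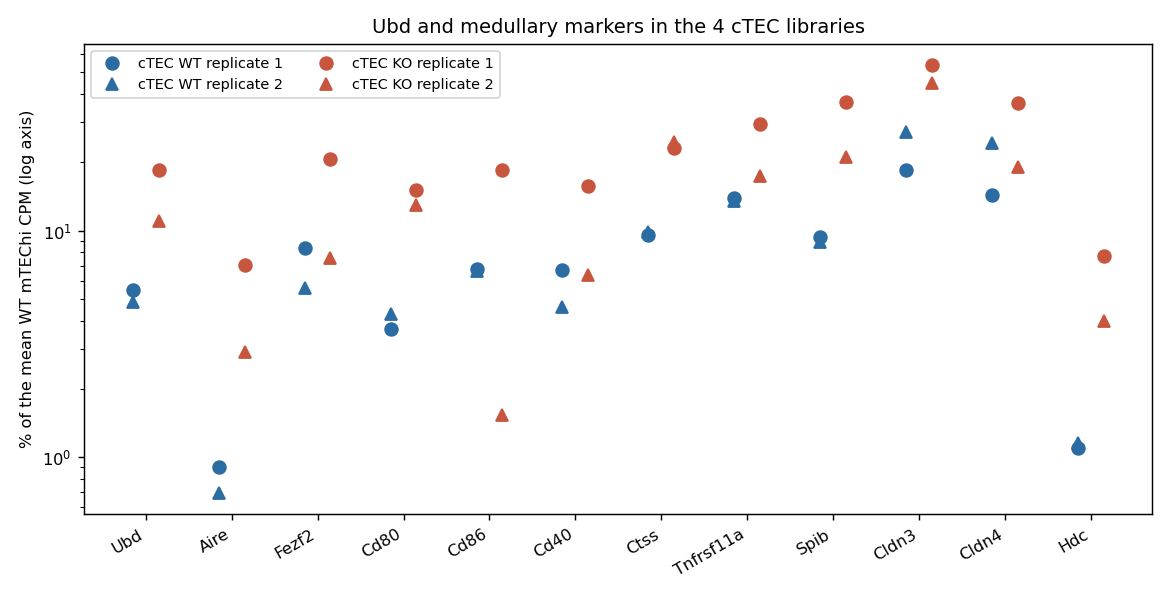
Level of Ubd and of 11 medullary markers in each cTEC library, as a percent of the mean WT mTEChi CPM (log axis); blue points are WT and red points KO, circles replicate 1 and triangles replicate 2. Ubd is at 5.49% and 4.82% in WT and at 18.5% and 11.0% in KO, inside the spread of the markers, and KO replicate 1 is above KO replicate 2 for all of the genes shown except Ctss.

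Between the WT populations, Ubd was lower in cTEC than in mTEClo, by a log2 fold change of -0.81 (SE 0.07), and lower than in mTEChi, by -4.20 (SE 0.09), both as descriptions. No WT cTEC library overlapped either medullary group. These comparisons share the WT cTEC libraries with the cTEC comparison above.

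To compare genes with one another, the authors' RPKM values, which divide by gene length, were used. Among 23063 genes Ubd ranked 468 and 584 in WT cTEC, 87 and 165 in KO cTEC, 218 to 243 in the 6 mTEClo libraries, and 6 to 8 in the 6 mTEChi libraries. Counts of Ubd alone made up 0.198% to 0.231% of all gene counts in mTEChi. Against 17 other ubiquitin-like modifiers with an RPKM, Ubd stood first in mTEChi, with a mean of 1709 RPKM in WT and 1869 in KO. The next modifier there was Gabarap, an autophagy protein, at 140 and 152 RPKM, and Ubd was at 2.11 to 2.53 times the 17 others summed. In mTEClo Ubd ranked 5, at 145 RPKM in WT and 158 in KO, with Isg15, the interferon-induced modifier, first at 204 and 233 RPKM. In WT cTEC it ranked 6, at 79.8 RPKM, behind Isg15 at 195. In KO cTEC its mean of 226 RPKM was the highest, but in KO replicate 2 Gabarap, at 211 RPKM, was above Ubd at 188. The ubiquitin gene Ubb had no RPKM, so it is missing from these ranks and sums. Its mean was 251 CPM in WT mTEClo and 201 CPM in WT cTEC, so its place per length is not known. Modifier genes with many near-identical copies in the genome, such as Rps27a, Ubb and Fau, may be counted too low, since reads shared between copies may have been dropped.

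**Figure D3:**
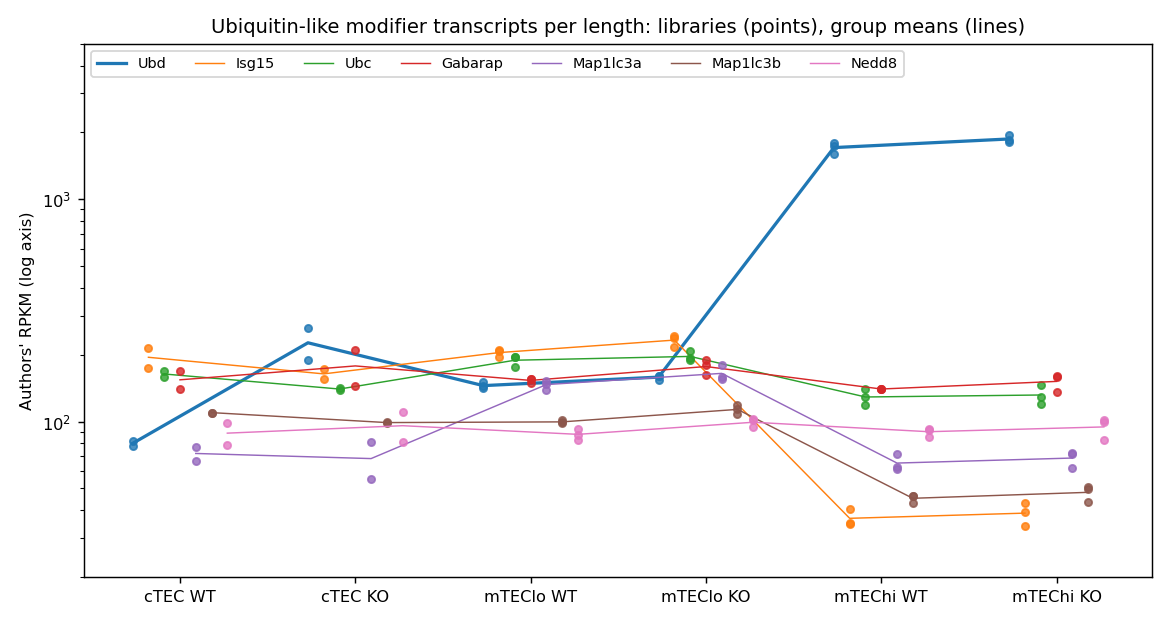
The authors' RPKM (log axis) of Ubd and 6 other ubiquitin-like modifiers by population and genotype; points are libraries and lines join group means. Ubd stands far above the other modifiers in mTEChi, at 1709 RPKM in WT and 1869 in KO, where Isg15 is at 34.0 to 43.0 RPKM; in KO cTEC its mean of 226 is also the highest, by less.

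The enzymes and the adaptor were expressed in every population at far steadier levels. Uba6, the E1, was the scarcest of the 4 genes. Its level was 49.2 and 41.1 CPM in WT cTEC and 30.2 and 28.9 CPM in KO cTEC. In mTEClo it was 27.0, 30.8 and 31.9 CPM in WT and 26.3, 26.5 and 29.5 in KO, and in mTEChi 26.9, 29.6 and 24.9 CPM in WT and 26.0, 27.0 and 29.8 in KO. WT cTEC thus stood above the other 5 groups, which overlapped one another. In RPKM, Uba6 ranked 9 or 10 of 10 genes for E1 enzymes or their subunits in every group, at group means of 4.07 to 6.58 RPKM. The ratio of Ubd to Uba6 in RPKM was 11.8 and 12.4 in WT cTEC, 42.0 to 64.8 in KO cTEC, 30.7 to 40.7 in mTEClo and 368 to 433 in mTEChi.

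Uba6 was higher in WT cTEC than in WT mTEClo, with a log2 fold change of 0.66 (SE 0.11, edgeR adjusted p = 0.00100), and higher than in WT mTEChi, with 0.81 (SE 0.11, edgeR adjusted p = 1.01e-04). Both WT cTEC libraries were above all 6 WT mTEC libraries. In these comparisons 45.1% and 78.2% of 19761 genes passed the threshold. Both calls held under every scaling, tool and left-out library tried. Between KO and WT cTEC, Uba6 had a log2 fold change of -0.59 (SE 0.19, unadjusted p = 0.0188, adjusted p = 0.292 by edgeR). The genotypes did not overlap, as for 45.2% of genes, and the fit of all 16 libraries, which pools the spread of cTEC with that of the tighter mTEC groups and calls 4700 genes here, gave an adjusted p of 0.00422. In mTEClo and mTEChi the KO effects on Uba6 were -0.14 (SE 0.09, edgeR adjusted p = 0.507) and 0.03 (SE 0.09, edgeR adjusted p = 1.00). Between mTEChi and mTEClo no difference was called, with -0.15 (SE 0.09, edgeR adjusted p = 0.154) in WT and 0.02 (SE 0.09, edgeR adjusted p = 0.875) in KO; with library totals in place of TMM these became 0.10 and 0.26, the second called at an adjusted p of 0.0137, and without WT mTEClo replicate 1 the WT value was -0.22 (adjusted p = 0.0437).

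Ube2z, the E2, was at 172 and 149 CPM in WT cTEC and 189 and 176 CPM in KO cTEC. In mTEClo it was 209, 223 and 206 CPM in WT and 239, 219 and 225 in KO, and in mTEChi 154, 169 and 165 CPM in WT and 178, 168 and 165 in KO. The mTEClo groups stood above all others without overlap. Ube2z was lower in mTEChi than in mTEClo, with log2 fold changes of -0.39 (SE 0.06, adjusted p = 2.69e-05 by edgeR) in WT and -0.41 (SE 0.06, adjusted p = 1.67e-05 by edgeR) in KO; with library totals the direction held, and the WT value, -0.14, missed the threshold at an adjusted p of 0.0574. It was also lower in WT cTEC than in WT mTEClo (-0.34, SE 0.07, edgeR adjusted p = 0.00366). Against WT mTEChi the WT cTEC value was 0.05 (SE 0.07, edgeR adjusted p = 0.527), which turned to -0.10 with RLE and to -0.20 with library totals (adjusted p = 0.0184). KO effects were 0.21 (SE 0.13, edgeR adjusted p = 0.560) in cTEC, 0.09 (SE 0.06, edgeR adjusted p = 0.518) in mTEClo and 0.07 (SE 0.06, edgeR adjusted p = 1.00) in mTEChi. In cTEC the KO libraries lay above the WT libraries without overlap, beside 45.2% of all genes without overlap.

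Nub1, the proteasome adaptor, was at 151 and 155 CPM in WT cTEC and 128 and 112 CPM in KO cTEC. In mTEClo it was 147, 153 and 146 CPM in WT and 145, 152 and 152 in KO, and in mTEChi 130, 130 and 126 CPM in WT and 126, 136 and 133 in KO. WT cTEC and both mTEClo groups overlapped, and both mTEChi groups lay below them. Nub1 was lower in mTEChi than in mTEClo, with log2 fold changes of -0.21 (SE 0.06, adjusted p = 0.00266 by edgeR) in WT and -0.18 (SE 0.06, adjusted p = 0.00767 by edgeR) in KO. With library totals, however, both turned to above 0 (0.04 and 0.07, adjusted p = 0.530 and 0.268). In KO 2 further alternatives of 13 missed the threshold, DESeq2 among them (-0.10, adjusted p = 0.0604). Nub1 was higher in WT cTEC than in WT mTEChi (0.32, SE 0.06, edgeR adjusted p = 4.34e-04), a call lost with library totals (0.08, adjusted p = 0.245). Against WT mTEClo the value was 0.11 (SE 0.06, edgeR adjusted p = 0.134), although 1 of 13 alternatives called Nub1 higher in WT cTEC. In KO cTEC Nub1 had a log2 fold change of -0.34 (SE 0.13, unadjusted p = 0.0392, adjusted p = 0.365 by edgeR). The genotypes did not overlap for Nub1, as for 45.2% of genes, and the fit of all 16 libraries called Nub1 at an adjusted p of 0.00192. In mTEClo and mTEChi its KO effects were 0.00 and 0.03 (SE 0.06 each, edgeR adjusted p = 1.00 each).

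**Figure D4:**
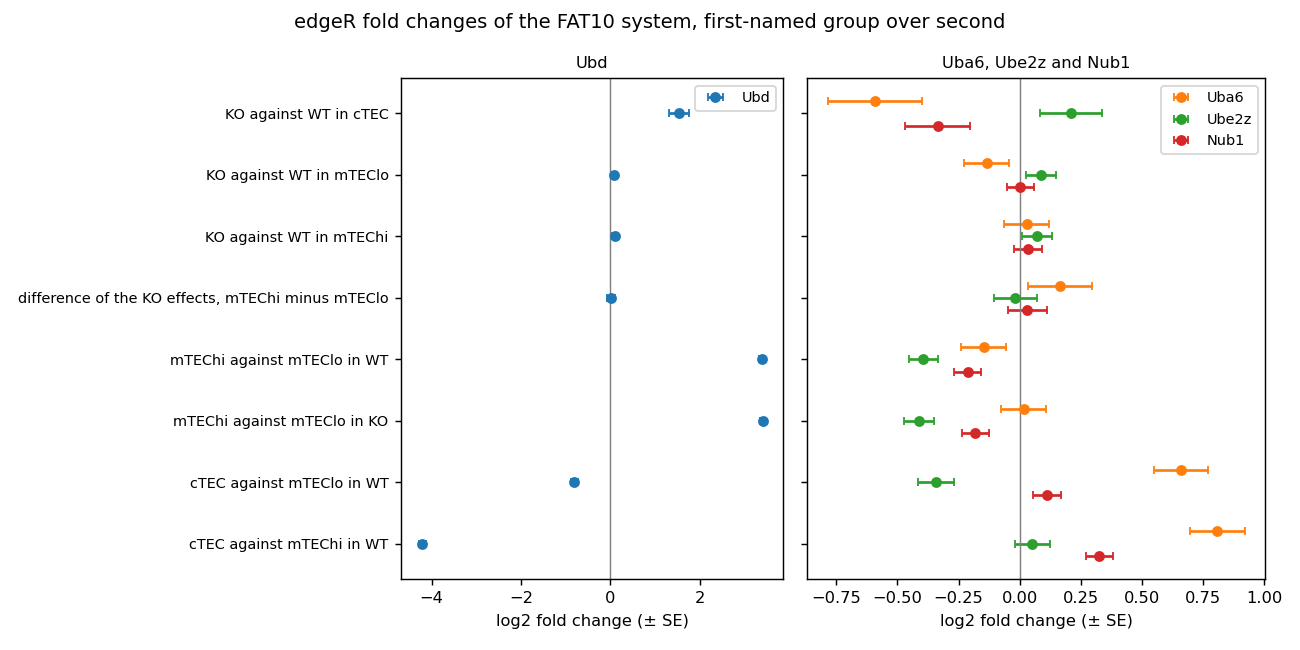
Log2 fold changes with their SE (edgeR) of Ubd (left) and of Uba6, Ube2z and Nub1 (right, on a narrower scale) in the 8 comparisons, first-named group over second. Ubd is at -4.20 for WT cTEC over mTEChi, 3.39 and 3.41 between mTEChi and mTEClo, and 1.53 between KO and WT cTEC. The other 3 genes stay between -0.59 and 0.81, and all KO effects in mTEC are near 0.

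These small differences between populations have to be read against the scaling. TMM, RLE and library totals gave a median log2 fold change over all genes of 0.08, 0.16 and 0.33 for WT mTEChi over mTEClo, and of -0.18, -0.32 and -0.42 for WT cTEC over mTEChi. Of the genes called between WT mTEChi and mTEClo, 53.8% were higher in mTEChi with TMM and 66.0% with library totals; in KO these shares were 53.7% and 65.8%. The difference of Ubd is larger than any of these shifts.

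The gene lists below were counted in the same way, and their counts are to be read against the share of all genes called by edgeR: 79.6% for WT mTEChi against mTEClo, 80.4% for the same in KO, 45.1% for WT cTEC against mTEClo and 78.2% for WT cTEC against mTEChi. Shares of a list near these are no result about the list. Most other modifiers were not higher in mTEChi. Of 18 other ubiquitin-like modifiers, 1 was higher and 12 were lower in WT mTEChi than in WT mTEClo, with a median of -0.37 against 0.08 over all genes; with library totals 3 were higher and 9 lower. Isg15, which like FAT10 is known as an interferon-induced modifier, had a mean of 211 CPM in mTEClo and 33.9 in mTEChi, or -2.64 on the log2 scale (SE 0.09, edgeR adjusted p = 6.39e-13). The autophagy modifiers Map1lc3b, Map1lc3a and Gabarapl1 followed at -1.30, -1.33 and -0.83. In KO the counts were 1 higher and 13 lower (3 and 9 with library totals), with Isg15 at -2.74. In WT cTEC against mTEChi, 10 modifiers were higher and 1 lower (9 and 3 with RLE, 7 and 5 with library totals), among them Isg15 at 2.63, Map1lc3b at 1.49, Gabarapl1 at 0.91 and Sumo3 at 0.60. Against mTEClo, 1 was higher and 5 were lower, with Map1lc3a at -0.98, Fau at -0.38 and Ubb at -0.25.

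The 9 other E1 genes include some that encode subunits of the same enzyme. Of these 9, 0 were higher and 8 lower in WT mTEChi than in mTEClo, beside 79.6% of all genes called (80.4% in KO). Among the lower were Uba2 (SUMO) at -0.43, Nae1 (NEDD8) at -0.37 and Uba3 (NEDD8) at -0.34. With library totals only 2 were lower and 1 was higher. In KO 0 were higher and 7 lower, and with library totals 1 and 2. In KO against WT cTEC, 7 of 9 were below 0, with a median of -0.30 against 0.01 over all genes, and 5 were lower and 2 higher without overlap, beside 45.2% of all genes without overlap. The lower ones included Uba2 (-0.32), Sae1 (-0.31), Uba3 (-0.46) and Nae1 (-0.30). None passed the edgeR threshold, although other settings called up to 1 higher and 4 lower, and the value of Uba6 (-0.59) lay below those of all 9. Against WT mTEClo, 2 were higher in WT cTEC and 1 lower, with Uba3 at 0.29 and Uba1 at -0.35. Against WT mTEChi 5 were higher and 1 lower (4 and 3 with library totals), among them Uba3 (0.63), Nae1 (0.60) and Uba2 (0.51).

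The parallel pathway of ISG15 has its own E1 (Uba7), E2 (Ube2l6), ligase (Herc6) and protease (Usp18). In WT mTEChi against mTEClo, 4 of its 5 genes were lower, beside 79.6% of all genes called (80.4% in KO). Herc6 was at -1.27, Ube2l6 at -0.20 and Uba7 at -0.19, next to Isg15, and Usp18 was at 0.07. With library totals 2 were lower and 1 higher. In KO 0 were higher and 3 lower, and with library totals 1 and 2. In WT cTEC only Usp18 differed from mTEClo, at -0.44. Against mTEChi 4 were higher (2 with RLE or library totals), with Herc6 at 1.44 and Uba7 at 0.28, and Usp18 was lower at -0.51. Of 12 genes of SUMO and NEDD8 conjugation, 0 were higher and 6 lower in WT mTEChi than in mTEClo, beside the same 79.6%. Sumo3 was at -0.42. With library totals 4 were higher and 3 lower. In KO 0 were higher and 8 lower, and with library totals 3 and 4. In WT cTEC 3 were higher and 2 lower than in mTEClo, among them Ube2f at -0.53, Ube2m at -0.24 and Senp8 at 0.64, and 7 were higher and 2 lower than in mTEChi (6 and 4 with library totals), with Sumo3 at 0.60.

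Among 10 genes whose proteins have been reported to bind or carry FAT10, Aipl1 had the largest difference. AIPL1 is a chaperone of photoreceptors known to bind both FAT10 and NUB1. Its counts were 0 in both WT cTEC libraries, 8 and 0 in KO cTEC, 10 to 16 in WT mTEClo and 1264 to 2380 in WT mTEChi. WT mTEChi was above WT mTEClo by 6.97 on the log2 scale (SE 0.25, edgeR adjusted p = 1.11e-12). Mad2l1, a mitotic checkpoint protein, was also higher at 1.34, and 5 genes were lower, beside 79.6% of all genes called. Hdac6 at -0.89 and the autophagy receptor Sqstm1 at -0.42 were among the lower. With library totals 4 were higher and 2 lower. KO mTEChi showed the same directions against KO mTEClo for Aipl1 (6.24), Mad2l1 (1.25), Hdac6 (-0.93) and Psmd4 (-0.38). In WT cTEC, Mad2l1 was above mTEClo (0.54), and Aipl1, Uba1 (-0.35) and Psmd4 (-0.31) were among 5 genes below it. Against mTEChi 3 were higher and 4 lower (2 and 6 with library totals), with Hdac6 at 0.65, Sqstm1 at 0.47 and Mad2l1 at -0.80.

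Genes of the TNF and interferon-gamma response, the signals known to induce FAT10, split in both directions. In WT mTEChi against mTEClo, 9 of 18 were higher and 8 lower, beside 79.6% of all genes called (80.4% in KO). Psme2, a proteasome activator subunit, was higher at 1.24 and the chemokine gene Cxcl9 at 1.46, while Gbp2, an interferon-induced GTPase, was lower at -1.97. In KO 9 were higher and 9 lower, with Ciita at 1.38. WT cTEC had 4 higher and 8 lower than mTEClo, with Cxcl9 at -2.86, Tnfaip3 at -1.005, Cxcl10 at -0.99 and Relb at -0.73, and 7 higher and 10 lower than mTEChi, with Gbp2 at 2.47, Psme2 at -1.26 and Cxcl9 at -4.31. In KO against WT cTEC, 9 were above 0 and 9 below, with a median of -0.02, and none passed the edgeR threshold, although other settings called up to 4 higher and 4 lower. There Irf1 was at 551 CPM in WT and 369 in KO, Cxcl10 at 632 and 363, and Cxcl9 at 13.2 and 29.9; of the 18, 5 were higher and 7 lower without overlap, beside 45.2% of all genes.

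In KO against WT mTEClo and mTEChi, 0 members of any of the 6 pathway lists were called by edgeR; under the alternatives, up to 1 gene of the FAT10 binders was called higher in mTEClo and none of any list in mTEChi. All 18 other modifiers were above 0 in mTEClo, with a median of 0.13, and 16 of 18 in mTEChi, with a median of 0.05, against 0 and 0.01 over all genes. In cTEC edgeR called 0 members of any list either, but each of the 6 lists had members called under at least 1 of the alternatives, the modifiers up to 2 higher and 1 lower; of the 18 other modifiers 9 were above and 9 below 0, and 3 were higher and 3 lower without overlap (median 0.02), beside 45.2% of all genes.

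Genes with a pattern like that of Ubd were named by Pearson r on log2(CPM + 0.5) over the 16 libraries, among 13493 candidates; the points are libraries of 3 populations, and those of a group share their population and genotype. The 6 highest were Sephs2 (0.998), Rftn1 (0.997), Gatm (0.997), Srgn (0.996), Prph (0.996) and Adgb (0.995). Srgn had mean levels of 74.4 CPM in WT and 252 in KO cTEC, 164 and 194 in mTEClo, and 1719 and 1742 in mTEChi, close to those of Ubd in each group. Sephs2 went from 36.7 to 79.4 CPM in cTEC and from 61.1 in WT mTEClo to 303 in WT mTEChi. By Spearman's rho these 6 had values of 0.865 to 0.926 and ranked only 52 to 326. The 16 libraries include the cTEC libraries on which Ubd was chosen. Over the 12 mTEC libraries alone, Pearson r of these 6 was 0.997 to 0.999, at ranks of 48 to 369. Their place at the top thus depends on the cTEC libraries and on the measure. For the other members the closest were Pitrm1 (0.947) and Mtm1 (0.942) for Uba6, Akr1b8 (0.961) and Heyl (0.960) for Ube2z, and Pigh (0.958) and Zfp617 (0.9497) for Nub1. The 4 members were not alike among themselves: Pearson r of Ubd was -0.54 with Uba6, -0.49 with Ube2z and -0.60 with Nub1 over the same 16 libraries, given as descriptions.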

How the data were processed

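The authors deposited a table of raw read counts per gene symbol and a table of RPKM values, both for 16 libraries. CASAVA 1.8.2, HTSeq 0.5.4p1 and mm10 are named in the submitters' processing notes; the aligner is not given in the sources used here, nor is the gene length behind the RPKM. Rows that name no gene (13.7% to 30.4% of reads in no gene, 0.541% to 0.887% ambiguous) were left out.

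The count model was that of edgeR 4.0.16, run in R 4.3.3 (filterByExpr, TMM, quasi-likelihood F test, Benjamini-Hochberg over all genes, threshold 0.05). KO against WT in cTEC used the 4 cTEC libraries alone, because they spread far more than the others (biological coefficient of variation 0.652, against 0.124 in the fit of the 12 mTEC libraries and 0.156 in that of the 8 WT libraries). The mTEC comparisons used the 12 mTEC libraries, and cTEC against mTEC the 8 WT libraries. SEs came from the F statistic. Of the 14 pairs of replicates within groups, none agreed within sampling noise. The scripts were tested on simulated data.

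The members, the gene lists and the tests were chosen with earlier results of these data known. All list members past the threshold were counted; the text names all where 4 or fewer passed and otherwise the 4 with the smallest p-values, plus the 6 genes most like Ubd and the 2 most like each other member. Some genes that this rule names are not reported here. Further list genes in the cTEC comparison were named after their values were seen. Alternatives were no filter, RLE, DESeq2 1.42.0, voom (limma 3.58.1), other sets of libraries, a replicate block and each library left out. Library totals were added after seeing the data. Motifs were searched on both strands of RefSeq promoter windows of GRCm38.p6, the assembly of mm10, and positions come from GENCODE M21.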

Additional observations from a re-analysis of the deposited data

How the results depend on the processing

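Of 440 fold changes of the 4 genes under an alternative, 401 were counted as unchanged. For tested values this means the same direction and the same side of the threshold. Ubd in the comparisons with cTEC had no test and was judged on its fold change alone. The cause of the other changes was not tested. Counts of genes past the threshold for KO against WT in cTEC (0) were 383 with no filter, 821 with DESeq2, 511 with voom, 4700 with all 16 libraries and 718 with the replicate block. In mTEClo (12) they were 25, 32 with library totals, 589 with DESeq2, 29 with voom, 0 with all 16 libraries and 1 with the population alone. In mTEChi (1) they were 4 with DESeq2 and 0 with all 16 libraries, and for the difference of the effects (2) 16, 0 with voom and 0 with all 16 libraries. With all 16 libraries Uba6 and Nub1 in KO cTEC were -0.60 and -0.34, past the threshold, and with mTEClo alone the KO effect on Nub1 was -0.0020.

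With library totals, WT mTEChi against mTEClo gave 0.10 for Uba6, -0.14 for Ube2z and 0.037 for Nub1, and KO 0.26 for Uba6 and 0.066 for Nub1. Nub1 in KO was -0.10 with RLE and with DESeq2 (-0.10). WT cTEC against mTEClo gave 0.12 for Nub1 with DESeq2, and 1 of 13 alternatives called Nub1 higher in this comparison, unlike the main fit. WT cTEC against mTEChi gave -4.35 for Ubd with RLE, -4.45 with totals and -4.35 with DESeq2, -0.10, -0.20 and -0.10 for Ube2z, and 0.078 for Nub1 with totals.

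Leaving out each library in turn gave counts of 167 to 3501 for KO against WT in cTEC (3501 without KO replicate 1, 1083 without KO replicate 2, 167 and 174 without WT replicates 1 and 2), 5 to 88 in mTEClo (88 without KO replicate 3) and 0 to 4 for the difference of the effects. The lone library of an arm was then assumed to vary like the other groups. Ranges for single genes were -0.024 to 0.031 for Nub1 in mTEClo KO, -0.037 to 0.10 for Uba6 in mTEChi KO, and -0.026 to 0.036 (Ubd), -0.065 to 0.011 (Ube2z) and -0.0058 to 0.064 (Nub1) for the difference of the effects. Between mTEChi and mTEClo, Uba6 ran from -0.22 to -0.082 in WT and from -0.049 to 0.059 in KO. In WT cTEC, Ubd ran from -0.97 to -0.74 against mTEClo and from -4.37 to -4.14 against mTEChi, and Ube2z from -0.13 to 0.13 against mTEChi.

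Replicate numbers were not taken to pair the libraries: correlations of deviations were at most 0.183 and not all above 0.1 in any comparison. Whether they do pair them is not known. A replicate block moved no call of the 4 genes; KO libraries of mTEChi each correlated best with mTEClo of the same number, a hint from the data only. Depth put 3 counts at no more than 0.0463 CPM, far under the level of all 4 genes.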
